A study of Mus musculus with 40 samples.

Results

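Axon guidance ligands and receptors were examined as 72 protein-coding genes of the 55487 in the count table. They were chosen by symbol alone, although earlier results of these data were known. The symbols were those of the Slits and Robos, the semaphorins of classes 3 to 7 with the plexins and neuropilins, and the ephrins and Eph receptors. The netrins and netrin-Gs were added with *Dcc*, *Neo1* and the Unc5 genes. Of these genes, 37 encode ligands and 35 encode receptors. RNA was measured in 40 libraries from 2 cell types made from mouse embryonic stem (ES) cells of a line from B6.Cg-Tg(Hlxb9-GFP)1Tmj/J mice, which carry green fluorescent protein under the promoter of *Mnx1* (Hb9), a homeobox gene of motor neurons. ES-astrocytes are astrocyte-like cells from cultures given forskolin, which activates adenylyl cyclase. ES-motor neurons were sorted by their fluorescence and placed onto the ES-astrocytes, both cell types were later sorted out of co-culture, and each library was made from about 200 sorted cells. The 10 groups of 4 biological replicates (letters A to D) are the 2 cell types from cultures whose ES-astrocytes received control medium, IL-1α + TNF-α, C1Q + C5, IL-1β + IL-6 or TGF-β2, each stimulus for 24 hours. All groups came from this single line. The stimuli were given to the ES-astrocytes, and it is not stated whether ES-astrocyte and ES-motor neuron libraries of the same letter shared a dish.

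Guidance cues tell a growing axon where to extend, turn or stop. Slits are secreted and repel axons through Robo receptors, and motor neurons are known to make Slits as well as Robos, by which motor axons stay bundled and keep out of the floor plate. Netrin attracts through Dcc and repels through Unc5, secreted semaphorins signal through neuropilins and plexins, and ephrins and Eph receptors, both bound to membranes, sort motor axons between the dorsal and ventral limb.

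The question put to the libraries was in which of these genes the ES-motor neurons and the ES-astrocytes differed, and whether a stimulus of the ES-astrocytes moved any. Total counts ran from 1510823 to 16054290 per ES-astrocyte library (median 4670241.5) and from 6557 to 19717324 per ES-motor neuron library (median 1213482). Where a gene had no counts, its level was taken to lie under 3 counts, which is 0.229 to 2.04 CPM (counts scaled to library size by TMM) in ES-astrocyte libraries and 0.153 to 202 CPM in ES-motor neuron libraries. Such limits cover counting error only, since no molecular identifiers are named. In 9 libraries, each from ES-motor neurons, the total was under 20% of the median of the 40. These were the 4 libraries of IL-1α + TNF-α (112775 to 445874 counts), replicates B and D of IL-1β + IL-6 (80315 and 146775), control replicate C (240859), TGF-β2 replicate A (283205) and C1Q + C5 replicate A (6557). The last of these held counts of 10 guidance genes, and its CPM say little about any single gene. In bulk samples, fewer cells of a type and less RNA per cell cannot be told apart.

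Markers of the labelled cell types were checked first. The 11 motor neuron markers summed to 87.9 to 407 CPM in ES-astrocyte libraries and to 943 to 4924 CPM in ES-motor neuron libraries, without overlap, and 7 of 11 were called higher in ES-motor neurons, while *Neurog2* was called lower. Their most abundant gene in ES-motor neurons was *Mnx1*, at a mean of 1052 CPM, and its difference on the log2 scale was 8.70 ± 0.72 (SE; edgeR adjusted p = 1.3e-12). In ES-astrocytes it was *Lhx4*, at a mean of 182 CPM. The 12 neuron markers were present in both cell types, at 2121 to 4695 CPM in ES-astrocyte libraries and 3772 to 13208 CPM in ES-motor neuron libraries, with *Stmn2* the most abundant in each. Of the 12 neuron markers 4 were called, *Nefl*, *Nefm*, *Stmn2* and *Map2*, and each was higher in ES-motor neurons.

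Of the 12 astrocyte markers, *Gfap*, *Aqp4* and *Aldh1l1* had no counts in any ES-astrocyte library. In ES-motor neurons *Gfap* had 1 count in 1 library (0.0510 CPM), and *Aqp4* and *Aldh1l1* had none. The other 9 had counts in ES-astrocytes, where the list summed to 693 to 2850 CPM, against 94.2 to 764 CPM in ES-motor neurons. *Fabp7*, which is also made by neural progenitors, was the most abundant in ES-astrocytes, at a mean of 1426 CPM. Of 7 astrocyte markers tested, 5 were lower in ES-motor neurons, and *Sox9* was higher, with the highest mean of the list in ES-motor neurons (265 CPM). The 9 neural progenitor markers summed to 643 to 1540 CPM in ES-astrocytes, against 67.4 to 743 CPM in ES-motor neurons, with *Vim* the most abundant in both. Of 8 tested, 7 were lower in ES-motor neurons, among them *Mki67* and *Top2a* of dividing cells. The 9 fibroblast or mesenchyme markers summed to 132 to 1214 CPM in ES-astrocytes, led by *Acta2* at a mean of 265 CPM with *Postn* at 0, and to at most 22.5 CPM in ES-motor neurons, where *Col1a2*, *Lum* and *Postn* were at 0. All 4 of them that were tested were lower in ES-motor neurons. The ES-astrocyte libraries thus carried neuronal, progenitor and mesenchymal transcripts beside glial ones. Their median sum was 3264 CPM for the neuron markers, against 1690 CPM for the astrocyte markers. These lists moved with the cell type difference of the guidance genes, and their part in it was not tested. Which cells of the ES-astrocyte fraction gave its guidance counts was not tested either.

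Other cell types left few counts. Endothelial markers (6) were absent from the ES-motor neuron counts and reached 16.6 CPM in the highest ES-astrocyte library, where *Cdh5*, *Tek* and *Flt1* were at 0 and *Kdr* led at a mean of 0.855 CPM. Oligodendrocyte lineage markers (7) reached 45.5 CPM in ES-astrocytes, against 30.6 CPM in ES-motor neurons, with *Sox10* and *Mag* at 0 in the first, *Olig1*, *Cspg4* and *Mag* at 0 in the second, and *Mbp* the most abundant in the second, at a mean of 6.54 CPM. The microglia markers (7) reached 15.9 and 21.8 CPM, led by *Csf1r* at means of 2.36 and 4.18 CPM, with *Aif1*, *P2ry12* and *Ptprc* at 0 in ES-astrocytes and all but *Csf1r* at 0 in ES-motor neurons. Pluripotent cell markers (6) reached 1.34 and 4.13 CPM, led by *Nanog* and *Esrrb*, with *Pou5f1*, *Zfp42*, *Dppa5a* and *Esrrb* at 0 in ES-astrocytes and *Pou5f1*, *Zfp42* and *Tdgf1* at 0 in ES-motor neurons.

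ES-astrocyte control replicate A stood apart from the other ES-astrocyte libraries. It had the lowest share of mitochondrial counts (1.12%, against 2.62% to 3.95% in the others), the lowest astrocyte marker sum (693 CPM) and the lowest share of counts on guidance genes (0.0752%, against 0.105% to 0.209%). Its fibroblast or mesenchyme marker sum was the highest (1214 CPM), close to that of control replicate B (1198 CPM), and its neuron marker sum the lowest (2121 CPM), close to that of TGF-β2 replicate A (2179 CPM). This library was kept, and values without it are given where they differ. Among ES-motor neurons, the shallow replicate A of IL-1α + TNF-α had the lowest share of mitochondrial counts (1.65%, against 2.73% to 5.38% in the others). Its motor neuron marker sum was the highest (4924 CPM) and its astrocyte marker sum the lowest (94.2 CPM). It also gave the lowest *Slit2* (471 CPM) and the highest *Slit3* (389 CPM) of that cell type.

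Guidance genes took 0.0752% to 0.209% of the counts in ES-astrocyte libraries (median 0.123%) and 0.189% to 0.366% in ES-motor neuron libraries (median 0.216%). The share of 0.366% is 24 counts in the library of 6557 counts. *Slit2* alone had a mean of 832 CPM in ES-motor neurons, against 31.4 CPM in ES-astrocytes. Each ES-astrocyte library held counts of 32 to 55 of the 72 genes (median 40.5), and each ES-motor neuron library of 10 to 57 (median 42.5). In both cell types together, 68 genes had counts. *Epha6*, *Epha8*, *Robo4* and *Plxnb3*, all receptors and named here after their values were seen, had none, which limits each to 0.0256 CPM over the pooled ES-astrocyte libraries and 0.0463 CPM over the pooled ES-motor neuron libraries. A further 6 genes had counts in ES-astrocytes only, from 1 to 192 counts in all, and 0 genes in ES-motor neurons only. These 6, also named after their values were seen, were the ligands *Sema3b*, *Sema3g*, *Efna1* and *Ntn5* and the receptors *Epha2* and *Ephb4*. Only 4 genes had counts in each of the 40 libraries, namely *Slit2*, *Efna5*, *Efnb2* and *Epha4*.

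**Figure D1:**
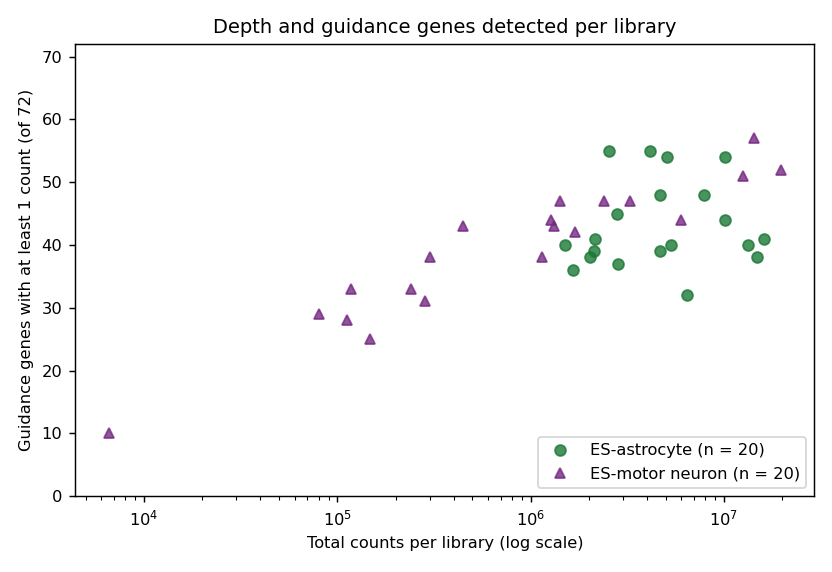
Number of the 72 guidance genes with at least 1 count (vertical axis) against total counts on a log scale (horizontal axis), 1 point per library, circles for ES-astrocytes and triangles for ES-motor neurons. The library with the fewest counts, a triangle, held the fewest guidance genes, 10 of 72.

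Levels of different genes were compared as CPM per kilobase of exon, averaged over the 20 libraries of a cell type. Ligands summed to 127 in ES-astrocytes, against 191 in ES-motor neurons on this scale, receptors to 52.4 and 44.1. In ES-astrocytes the highest were the ligands *Efna5* (38.4 ± 19.4, SD), *Sema4b* (26.6 ± 17.4) and *Efnb2* (25.9 ± 14.9), which did not differ from each other beyond their spread. The highest receptor was *Plxna2* (8.46 ± 3.46), followed by *Epha7* (5.86 ± 3.80) and *Epha4* (5.69 ± 3.71), and these neighbours too lay within their spread. In ES-motor neurons *Efnb2* (37.5 ± 20.5), *Slit2* (32.7 ± 7.64), *Efna5* (32.6 ± 14.7), *Slit3* (25.6 ± 16.6) and *Sema4b* (22.4 ± 13.6) led, within their spread, and the highest receptor was *Epha4* (8.34 ± 4.09). With the longest transcript as the length, the level of *Slit2* was 83.5 and the highest of all in ES-motor neurons, above *Efnb2* at 53.6. *Slit2* has annotated exons over 25433 bases and a longest transcript of 9960, so that its place among the leading ligands depends on the length used.

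Other families had lower leading members. Among secreted semaphorins *Sema3c* had the highest mean in both cell types (1.399 ± 1.56 in glia and 3.17 ± 3.38 in neurons). By the median *Sema3d* was the higher in ES-motor neurons, at 1.99 against 1.93, and with the longest transcript as the length *Sema3a*, named after its values were seen, was the higher in ES-astrocytes, at 1.96 against 1.82. *Ntn1* led the netrins in ES-astrocytes at 4.48 ± 3.25, and *Ntn3* had the highest mean in ES-motor neurons at 0.450 ± 1.19, beside *Ntn1* at 0.237 ± 0.260. The mean of *Ntn3* there rests on counts in 5 libraries, and by the median *Ntn1* was the higher, at 0.253 against 0. *Ntng1* led the netrin-Gs, membrane-tied relatives of the netrins, at 1.03 ± 1.49 and 0.299 ± 0.524. Of the netrin receptors *Dcc* stood at 2.29 ± 2.07 and 3.70 ± 2.26, and *Unc5d*, the highest of its family, at 1.62 ± 1.48 and 0.745 ± 0.951. *Robo1* stood at 3.48 ± 2.60 and 4.06 ± 2.14, and the leading EphB receptors were *Ephb2* in ES-astrocytes (1.43 ± 1.28) and *Ephb1* in ES-motor neurons (2.16 ± 1.49). For most of these genes the spread between libraries was about as large as the mean. The leading plexin of ES-motor neurons was *Plxna1* at 2.14 ± 1.71.

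The cell types were compared over all 40 libraries with treatment as a term, by edgeR's quasi-likelihood test on the 13227 genes that passed its filter on low counts. Calls needed a p of 0.05 or less after Benjamini-Hochberg adjustment and a change of more than 1 on the log2 scale in either direction, and positive changes are higher in ES-motor neurons. The filter kept 53 of the 72 guidance genes (27 ligands and 26 receptors), and a gene could pass through its high cell type alone. The 15 genes with counts that it removed had means of at most 1.29 CPM in ES-astrocytes, against 1.08 CPM in ES-motor neurons. Of the 53 tested, 9 were called higher in ES-motor neurons, where 3.86% of all genes tested were. A further 5 were called lower, where 11% of all genes tested were, and 39 were not called. The median log2 fold change was -0.17 over the 53 and -0.21 over all 13227 genes. P-values here measure the spread between samples of a single cell line.

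Of 27 ligands tested, 7 were called higher in ES-motor neurons and 1 lower, with a median log2 fold change of -0.17. Of 26 receptors tested, 2 were called higher and 4 lower, with a median of -0.15. With both directions counted together, DESeq2 called 8 and 8 of them and limma-voom 12 and 11. Of all genes, DESeq2 called 4.02% higher and 8.89% lower, and limma-voom 16.8% higher and 6.71% lower. A difference between ligands and receptors was not tested. The genes that edgeR called higher were 2 of 3 Slits tested, 1 of 3 secreted and 4 of 10 membrane-bound semaphorins and 2 of 2 neuropilins. Those called lower were 1 of 3 netrins, 2 of 5 EphA receptors, 1 of 3 Robos and 1 of 7 plexins, and DESeq2 also called *Epha5* lower. Limma-voom also called *Sema4a*, *Ntn3*, *Epha10* and *Plxna4* of these families higher (all 5 but *Ntn3* named after their values were seen). EdgeR called 0 members of the ephrin-A, ephrin-B, netrin-G, EphB, Unc5 and DCC and neogenin families, of 4, 3, 1, 3, 4 and 2 tested, with 0, 0, 0, 1, 0 and 1 at an unadjusted p under 0.05. DESeq2 called 0, 0, 0, 1, 0 and 0 of them and limma-voom 2, 0, 0, 1, 2 and 1.

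**Figure D2:**
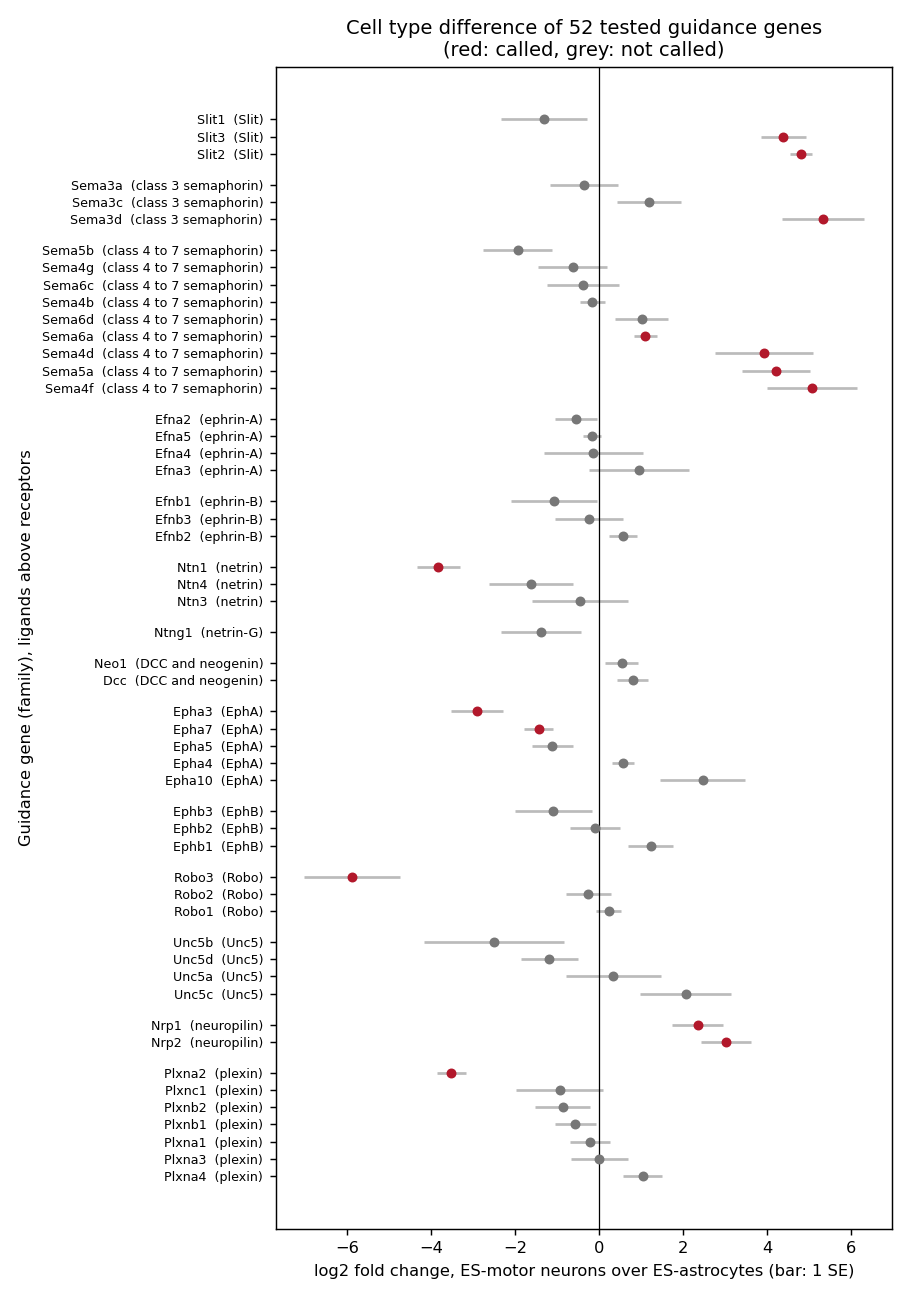
Log2 fold change of ES-motor neurons over ES-astrocytes (horizontal axis) with 1 SE for 52 of the 53 tested guidance genes, grouped by family, ligands above and receptors below, red where called. *Sema4a*, with an SE of 31.6, is not drawn. *Slit2*, *Slit3* and both neuropilins lie to the right, and *Ntn1*, *Robo3* and *Plxna2* to the left.

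*Slit2* (ENSMUSG00000031558, chromosome 5), a secreted ligand of the Robo receptors, ran from 2.62 to 84.7 CPM in ES-astrocytes (median 26.8) and from 471 to 1198 CPM in ES-motor neurons (median 859). Every ES-motor neuron library lay above every ES-astrocyte library, the shallowest included. The difference was 4.81 ± 0.26 on the log2 scale (SE; edgeR adjusted p = 6.9e-20). *Slit3* (ENSMUSG00000056427, chromosome 11), a second ligand of the same receptors, ran from 0 to 25.9 CPM in ES-astrocytes (median 5.94) and from 54.9 to 389 CPM in ES-motor neurons (median 122). Here too the cell types did not overlap in any of the 20 against 20 libraries, and the log2 difference was 4.39 ± 0.53 (edgeR adjusted p = 1.2e-08). The 3 highest ES-motor neuron libraries for *Slit3*, at 389, 364 and 337 CPM, were replicate A of IL-1α + TNF-α, IL-1β + IL-6 and C1Q + C5, and the last of these is the library of 6557 counts. *Slit1*, the third of the family, was low in both cell types, at 0 to 13.6 CPM in ES-astrocytes (median 0.671, counts in 14 libraries) and 0 to 13.4 CPM in ES-motor neurons (median 0, counts in 7). Its cell types overlapped, and its log2 difference of -1.30 ± 1.02 was not called (edgeR adjusted p = 0.46). It was positive at 1.03 with limma-voom and at 0.26 within plate rows G and H.

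*Slit2* and *Slit3* were the only tested guidance genes whose cell types did not overlap. How many of all genes tested separated in this way was not counted, so this is not set against all genes. The annotation places the microRNA gene *Mir218-1* inside *Slit2* and *Mir218-2* inside *Slit3*, on the same strand and away from annotated exons. *Slit2* also has an antisense gene within its span. The strand setting of the counts is not given, so how far reads of overlapping genes entered these counts is uncertain, although no exon of another gene overlaps an exon of either.

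**Figure D3:**
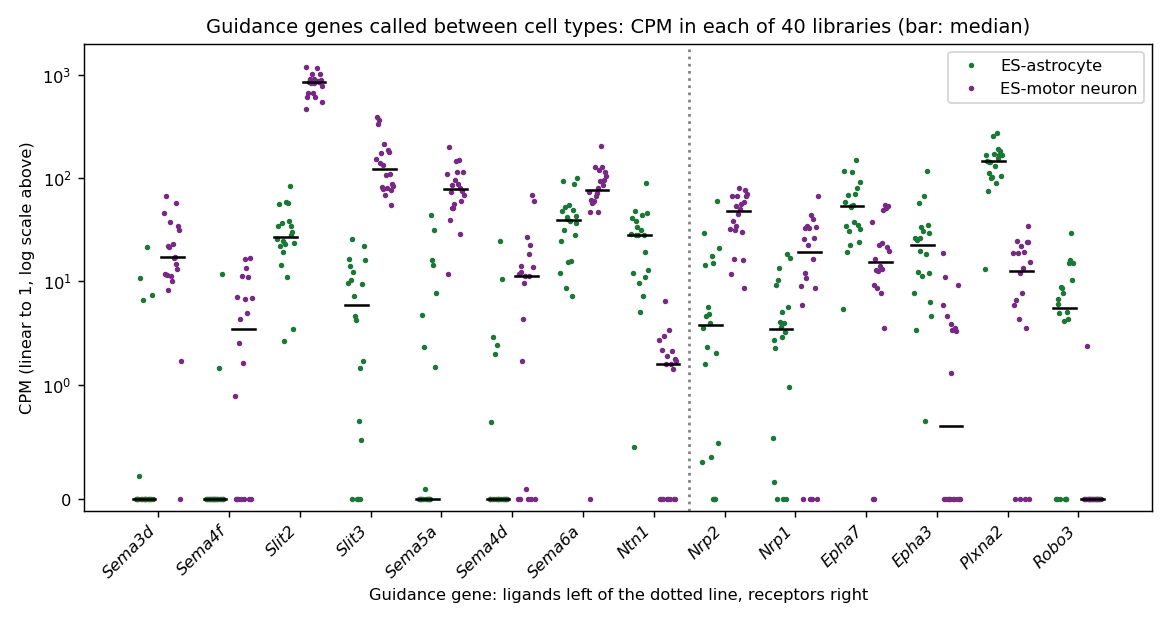
CPM (vertical axis, linear to 1 and logarithmic above) of the 14 guidance genes called between cell types, 1 point per library (20 green points for ES-astrocytes and 20 purple points for ES-motor neurons), with the median as a bar, ligands left of the dotted line. *Slit2* and *Slit3* separate fully. The other genes overlap.

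Of the secreted class 3 semaphorins, 1 of 3 tested was called. *Sema3d* (ENSMUSG00000040254, chromosome 5), a repellent ligand that acts through neuropilins, was at 0 in 15 ES-astrocyte libraries and reached 21.3 CPM in IL-1β + IL-6 replicate C. In ES-motor neurons it ran from 0 to 67.4 CPM (median 17.1), with counts in 19 of 20 libraries, and its highest value is 1 count in the library of 6557. The groups overlapped, and 9 ES-motor neuron libraries lay above the highest ES-astrocyte library. Its log2 difference was 5.34 ± 0.98 (edgeR adjusted p = 3.8e-05), and it was 7.11 without ES-astrocyte control replicate B, which held 10.7 CPM where the other 3 control libraries had 0. *Sema3c* ran from 0 to 38.0 CPM in ES-astrocytes (median 5.62) and from 0 to 74.3 CPM in ES-motor neurons (median 13.8). It overlapped widely, and its difference of 1.18 ± 0.76 was not called (edgeR adjusted p = 0.34).

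Of the 10 membrane-bound semaphorins tested, 4 were called, all higher in ES-motor neurons. *Sema5a* (ENSMUSG00000022231, chromosome 15), which can attract or repel axons depending on the proteoglycans around it, had counts in 9 of 20 ES-astrocyte libraries, at 0 to 43.6 CPM (median 0), and in each of the ES-motor neuron libraries, ranging from 11.8 to 202 CPM (median 77.7), where the highest value is 3 counts in the library of 6557. All but 3 ES-motor neuron libraries lay above the highest ES-astrocyte library, TGF-β2 replicate C. The log2 difference was 4.21 ± 0.80 (edgeR adjusted p = 8.9e-05), 4.86 without ES-astrocyte control replicate D and 5.04 without ES-astrocyte C1Q + C5 replicate D. *Sema6a* (ENSMUSG00000019647), which binds class A plexins and is known to help hold motor neuron cell bodies inside the spinal cord, ran from 7.15 to 99.4 CPM in ES-astrocytes (median 39.3) and from 0 to 203 CPM in ES-motor neurons (median 77.1). It was above the ES-astrocyte median in 19 of 20 ES-motor neuron libraries, the exception being the library of 6557 counts, and the cell types overlapped. The difference was 1.10 ± 0.27 (edgeR adjusted p = 0.0016), close to the fold limit, and 0.80 within plate rows G and H, where it was not called.

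*Sema4f* (ENSMUSG00000000627, chromosome 6), a membrane semaphorin of neurons, had counts in 2 ES-astrocyte libraries (11.7 CPM in C1Q + C5 replicate D and 1.44 CPM in TGF-β2 replicate C) and in 13 ES-motor neuron libraries, up to 16.9 CPM (median 3.43). Of the ES-motor neuron libraries 3 lay above the highest ES-astrocyte library, and the others overlapped. Its difference was 5.07 ± 1.08 (edgeR adjusted p = 0.00034), 6.54 without the first of these ES-astrocyte libraries and 6.07 without the second. *Sema4d* (ENSMUSG00000021451, chromosome 13), the ligand of plexin-B1, ran from 0 to 24.5 CPM in ES-astrocytes, with counts in 6 libraries, and from 0 to 69.0 CPM in ES-motor neurons (median 11.3), with counts in 15. Its highest values, 69.0 and 60.3 CPM, came from shallow libraries (IL-1α + TNF-α replicate D and IL-1β + IL-6 replicate D). The difference was 3.92 ± 1.16 (edgeR adjusted p = 0.011), it was 5.09 without ES-astrocyte C1Q + C5 replicate C, and without the 9 shallow libraries it was 2.78 and was not called. *Sema4b*, the most abundant semaphorin, was at 11 to 431 CPM in ES-astrocytes (median 124) and 0 to 285 CPM in ES-motor neurons (median 103). The lowest ES-astrocyte value was control replicate A, the cell types overlapped, and the difference of -0.17 ± 0.30 was not called (edgeR adjusted p = 0.80) and changed sign without the shallow libraries, at 0.14, within the controls, at 0.18, and with limma-voom, at 0.24.

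The ephrins, which are tied to the membrane and signal in both directions on contact with Eph receptors, were not called by edgeR or DESeq2, while limma-voom called 2 ephrin-A genes. *Efna5*, a ligand of EphA receptors that repels limb and retinal axons, ran from 47.5 to 295 CPM in ES-astrocytes (median 148) and from 51.7 to 245 CPM in ES-motor neurons (median 121). *Efnb2*, a ligand of EphB receptors and EphA4, ran from 1.82 to 377 CPM in ES-astrocytes (median 177) and from 23.6 to 541 CPM in ES-motor neurons (median 263). Both genes overlapped between the cell types, although 4 ES-motor neuron libraries lay above the highest ES-astrocyte library for *Efnb2*. The ES-astrocyte library at 1.82 CPM for *Efnb2* was control replicate A. Their differences were -0.17 ± 0.21 (edgeR adjusted p = 0.69) and 0.57 ± 0.34 (edgeR adjusted p = 0.28), and that of *Efna5* was 0.84 within the control libraries.

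*Ntn1* (ENSMUSG00000020902, chromosome 11), the secreted netrin of the floor plate, was the called ligand that was lower in ES-motor neurons. It ran from 0.453 to 89.1 CPM in ES-astrocytes (median 28.3) and from 0 to 6.46 CPM in ES-motor neurons (median 1.59), with counts in 20 and 12 libraries. Every ES-motor neuron library was below the ES-astrocyte median, and the overlap came from ES-astrocyte IL-1β + IL-6 replicate A (0.453 CPM) and control replicate C (5.10 CPM). The log2 difference was -3.83 ± 0.51 (edgeR adjusted p = 6.6e-08). *Ntn3* had counts in 6 ES-astrocyte and 5 ES-motor neuron libraries, up to 23.7 and 25.9 CPM, and the annotation gives it exons that overlap those of *Tbc1d24*, so that its counts are uncertain. Its difference of -0.46 ± 1.14 was not called (edgeR adjusted p = 0.86), it was positive with DESeq2 (0.98) and with limma-voom (2.49), which called it, and without ES-astrocyte control replicate C, its highest library there, it was 0.89. *Ntng1*, a synaptic adhesion ligand, ran from 0 to 48.3 CPM in ES-astrocytes (median 2.95) and from 0 to 17.3 CPM in ES-motor neurons (median 0), overlapped, and was not called (-1.40 ± 0.96, edgeR adjusted p = 0.37).

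Among receptors, both neuropilins were called higher in ES-motor neurons. *Nrp2* (ENSMUSG00000025969, chromosome 1), a co-receptor that binds semaphorin ligands and passes the signal through plexins, ran from 0 to 59.8 CPM in ES-astrocytes (median 3.75) and from 8.63 to 80.2 CPM in ES-motor neurons (median 47.7). All 20 ES-motor neuron libraries lay above the ES-astrocyte median, and 6 lay above the highest ES-astrocyte library, C1Q + C5 replicate D. The difference was 3.02 ± 0.59 (edgeR adjusted p = 9.7e-05). *Nrp1* (ENSMUSG00000025810, chromosome 8), the related co-receptor for Sema3A, ran from 0 to 18.5 CPM in ES-astrocytes (median 3.42) and from 0 to 67.5 CPM in ES-motor neurons (median 19.4). It overlapped, with 10 ES-motor neuron libraries above the highest ES-astrocyte library and 4 at 0. The difference was 2.35 ± 0.61 (edgeR adjusted p = 0.0035). It was 1.05 within plate rows E and F, where it was not called, and 3.29 within rows G and H. An exon of the microRNA gene *Mir1903* overlaps an exon of *Nrp1* on the same strand, and exons of *Plxna1* and *Ephb1*, described below, overlap noncoding genes on the opposite strand, so that the counts of these 3 genes are uncertain.

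Of 7 plexins tested, 1 was called. *Plxna2* (ENSMUSG00000026640, chromosome 1), the signalling receptor for class 6 and, with neuropilins, class 3 semaphorins, ran from 13.1 to 272 CPM in ES-astrocytes (median 146) and from 0 to 34.5 CPM in ES-motor neurons (median 12.7). The low ES-astrocyte value was control replicate A, the next lowest was 74.5 CPM, and without that library no ES-motor neuron library reached the ES-astrocytes. The log2 difference was -3.52 ± 0.36 (edgeR adjusted p = 4.8e-11). *Plxna1*, a receptor of the same class, overlapped, at 1.48 to 66.0 CPM in ES-astrocytes (median 16.6) and 0 to 60.2 CPM in ES-motor neurons (median 15.3). Its difference of -0.21 ± 0.47 was not called (edgeR adjusted p = 0.84), and it changed sign within plate rows G and H (1.11), with limma-voom (0.44) and without ES-astrocyte control replicate A (0.06), its highest library.

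Of 3 Robo genes tested, 1 was called. *Robo1*, the receptor through which Slit repels most commissural and motor axons, ran from 8.33 to 182 CPM in ES-astrocytes (median 45.9) and from 0 to 131 CPM in ES-motor neurons (median 70.1). The cell types overlapped, and the difference of 0.22 ± 0.29 was not called (edgeR adjusted p = 0.70) and was -0.21 within plate rows G and H. *Robo3* (ENSMUSG00000032128, chromosome 9), a divergent Robo that lets commissural axons cross the midline and is known for binding no Slit with high affinity in mammals, was at 0 to 29.1 CPM in ES-astrocytes (median 5.55), with counts in 14 libraries. In ES-motor neurons it had counts in 1 library, IL-1β + IL-6 replicate A, at 2.34 CPM, which was the second deepest of that cell type, and 19 libraries were at 0. Its difference was -5.89 ± 1.15 (edgeR adjusted p = 9.7e-05), it was -4.87 without ES-astrocyte control replicate D, and without the IL-1β + IL-6 library its ES-motor neurons are at 0. With limma-voom it was -1.19 and was not called.

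*Dcc*, the receptor by which axons grow toward netrin, ran from 2.88 to 104 CPM in ES-astrocytes (median 21.5) and from 0 to 103 CPM in ES-motor neurons (median 46.8). It was above the ES-astrocyte median in 17 of 20 ES-motor neuron libraries, and the range of one cell type covered nearly all of the other. The difference of 0.79 ± 0.37 was not called by edgeR (edgeR adjusted p = 0.14). It was called at 1.02 without ES-astrocyte TGF-β2 replicate C, at 1.09 without ES-astrocyte C1Q + C5 replicate D, the highest ES-astrocyte libraries for this gene, and at 1.07 by limma-voom. *Unc5d*, a netrin receptor of the repelling kind, ran from 0 to 47.6 CPM in ES-astrocytes (median 11.9) and from 0 to 28.9 CPM in ES-motor neurons (median 3.53), overlapped, and was not called (-1.19 ± 0.69, edgeR adjusted p = 0.27).

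Eph receptors are tyrosine kinases that answer to ephrins on neighbouring cells. *Epha3* (ENSMUSG00000052504, chromosome 16), which is known in motor neurons that supply trunk muscles, ran from 0.682 to 118 CPM in ES-astrocytes (median 22.5) and from 0 to 18.96 CPM in ES-motor neurons (median 0.641), with counts in 20 and 10 libraries. All ES-motor neuron libraries lay below the ES-astrocyte median, and the groups overlapped. Its difference was -2.91 ± 0.62 (edgeR adjusted p = 0.00038). *Epha7* (ENSMUSG00000028289, chromosome 4), a receptor for A-type ephrins, ran from 5.45 to 149 CPM in ES-astrocytes (median 53.3), with control replicate A the lowest, and from 0 to 55.2 CPM in ES-motor neurons (median 15.3). The cell types overlapped, with 18 of 20 ES-motor neuron libraries below the ES-astrocyte median, and the difference was -1.44 ± 0.35 (edgeR adjusted p = 0.0018), with -1.53 and -1.19 within plate rows E and F and rows G and H, neither called alone.

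*Epha4*, which steers motor axons to the dorsal limb, went the other way without a call. It ran from 12.2 to 126 CPM in ES-astrocytes (median 34.8) and from 17.7 to 140 CPM in ES-motor neurons (median 67.0), overlapped, and differed by 0.56 ± 0.27 (edgeR adjusted p = 0.16). *Ephb1*, which steers axons to the ventral limb, was at 0 to 20.6 CPM in ES-astrocytes (median 6.96) and 0 to 33.8 CPM in ES-motor neurons (median 15.6). Its difference of 1.22 ± 0.53 was not called by edgeR (edgeR adjusted p = 0.11) and was called by DESeq2 (1.15) and limma-voom (1.60). *Ephb2*, a receptor for B-type ephrins, overlapped, at 0 to 52.5 and 0 to 39.3 CPM (medians 16.4 and 13.5), and its difference of -0.10 ± 0.60 (edgeR adjusted p = 0.95) was -1.55 within plate rows E and F and 1.95 within rows G and H.

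Cell types sat in separate rows of the plate, ES-astrocytes in rows E and G and ES-motor neurons in rows F and H, and carried different index primers, so row and primer cannot be told apart from cell type. The row pairs E with F and G with H each held 10 libraries of each cell type, and fits within them were added after the data were seen. Within rows E and F, 8 guidance genes were called higher, where 2.99% of all genes were, and 5 lower, where 8.85% were. Of these 13, 12 were among the 14 called over all libraries. Within rows G and H, 10 were higher, where 2.37% of all genes were, and 4 lower, where 4.5% were, and again 12 of the 14 were shared. *Epha7* and *Nrp1* lost their call in rows E and F, and *Epha7* and *Sema6a* in rows G and H.

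Taken one treatment at a time, 4 libraries against 4, the directions of the called genes held wherever they could be tested by edgeR. In the control libraries alone, 1 of 38 guidance genes tested was called higher by edgeR, *Slit2*, where 0.569% of all genes were. EdgeR called 0 lower there, where 1.67% of all genes were, and 8 of the 38 had an unadjusted p under 0.05. The share of all genes under that p is not given, so the 8 are not set against all genes. No other tool was run on single treatments. *Slit2* was called in each of the 5 treatments, with log2 differences from 4.37 with C1Q + C5 to 5.56 with IL-1β + IL-6. *Plxna2* was called in 4 of 5 (all but the control) and *Slit3* in 3 of 5. *Sema3d* was called in 2 of 4 treatments that could be tested. *Ntn1* and *Sema5a* were each called in 1 of 5, and the other 8 of the 14 were not called in any single treatment. *Sema4f* passed the filter in no single treatment, and the other 13 kept their sign in each treatment in which they were tested. The size of the differences varied between treatments, as for *Nrp2* (1.00 to 5.22). *Sema3d*, *Sema5a* and *Robo3* had no or few counts in some groups, so their sizes in single treatments are not given.

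The number of calls depended on the tool. DESeq2 called 10 guidance genes higher, where 4.02% of all genes were, and 6 lower, where 8.89% were, the 14 among them. Limma-voom with sample quality weights called 19 higher, where 16.8% of all genes were, and 4 lower, where 6.71% were. It called 13 of the 14 again and moved the balance over all genes, 71.4% of its calls being higher in ES-motor neurons against 25.9% with edgeR and 31.2% with DESeq2. The median log2 fold change of all genes was 0.38 with limma-voom and 0.81 with DESeq2, against -0.21 with edgeR. The guidance genes had a median of 1.18 with limma-voom, which is above its median of all genes, as -0.17 is above -0.21 with edgeR, while the median with DESeq2 was -0.00 and below its median of all genes.

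Genes that act beside the guidance receptors were listed from general knowledge, with earlier results of these data known. Of 55 guidance effectors, which carry the signal from the receptors to the cytoskeleton, 54 were in the table, 48 were tested, 6 were called higher and 4 lower in ES-motor neurons, where 3.86% and 11% of all genes were, with a median log2 fold change of 0.09. Their most abundant gene was *Dpysl2*, a collapsin response mediator, in both cell types, and *Ngef* and *Fes* were at 0 in ES-motor neurons. *Dock1*, an activator of Rac that works below Dcc, was lower by a log2 difference of -7.51 ± 0.74 (edgeR adjusted p = 2.6e-11), *Dpysl3* was higher by 1.12 ± 0.16 (edgeR adjusted p = 2.9e-07) and *Ablim1*, an actin-binding protein, was higher by 2.84 ± 0.44 (edgeR adjusted p = 2.0e-06). The list summed to 7275 to 17173 CPM in ES-astrocytes, against 7813 to 29596 CPM in ES-motor neurons, and the cell types overlapped.

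Of 40 other guidance cues and receptors, 35 were tested, 7 were called higher and 7 lower, beside the same shares of all genes, 3.86% and 11%, with a median of -0.03. The 3 of smallest p were *Cntn2*, an axonal adhesion molecule (3.17 ± 0.47, edgeR adjusted p = 9.3e-07), *Wnt5a*, a secreted cue for commissural axons (-4.49 ± 0.70, edgeR adjusted p = 2.3e-06), and *Ptprf*, a receptor phosphatase (-1.17 ± 0.20, edgeR adjusted p = 1.4e-05). The list summed to 666 to 1988 CPM in ES-astrocytes, against 606 to 2033 CPM in ES-motor neurons, with *Fzd3* the most abundant in both, *Hgf* at 0 in both and *Boc* and *Gdnf* at 0 in ES-motor neurons.

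Bases upstream of the start are shown for 3 called genes. The first was taken for full separation of the cell types and the third for the near absence of counts in ES-motor neurons. The second had the largest increase in the edgeR fit over all libraries, at 5.34, with *Sema4f* close to it at 5.07. Upstream windows of 250 bases were looked up for the 3 called genes of smallest p in each direction, and 5 of 6 were matched by symbol in the table of RefSeq windows used (GRCm38.p6), all but *Ntn1*. On both strands the windows were searched for TAATTA, the core that many homeodomain proteins bind, and CAGCTG, an E-box, which each read the same on both strands and do not overlap each other. The first lies in 4.84% of all 32851 windows of that length and the second in 13%. TAATTA was present in 1 of the 5 windows, that of *Robo3*, and CAGCTG in 0. Only bases before the first annotated exon are printed, 5′ to 3′, with the motif in capitals. The windows are chr5:47982905-47983137 (plus strand) for *Slit2*, chr5:12382916-12383165 (plus strand) for *Sema3d* and chr9:37433247-37433425 (minus strand) for *Robo3*.
Slit2: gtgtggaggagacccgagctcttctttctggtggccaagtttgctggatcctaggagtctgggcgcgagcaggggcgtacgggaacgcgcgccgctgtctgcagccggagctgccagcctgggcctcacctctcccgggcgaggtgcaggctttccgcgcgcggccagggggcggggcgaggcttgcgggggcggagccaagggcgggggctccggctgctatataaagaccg
Sema3d: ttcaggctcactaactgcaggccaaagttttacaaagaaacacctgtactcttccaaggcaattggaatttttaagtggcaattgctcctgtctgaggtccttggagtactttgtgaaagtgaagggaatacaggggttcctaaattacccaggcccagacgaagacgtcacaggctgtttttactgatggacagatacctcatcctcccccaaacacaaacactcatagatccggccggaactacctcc
Robo3: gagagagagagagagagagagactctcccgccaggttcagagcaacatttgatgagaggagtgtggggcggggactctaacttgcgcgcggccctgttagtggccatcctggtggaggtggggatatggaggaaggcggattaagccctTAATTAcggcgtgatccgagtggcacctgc
Of the bases in the full windows, 69.6% were G or C for *Slit2*, 46.8% for *Sema3d* and 61.2% for *Robo3*, against a median of 52.4% over all windows. A match describes the letters only.

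Whether the difference between cell types varied with treatment was tested with the 4 interaction terms together. EdgeR called 0 of 53 guidance genes and 0 of 13227 genes (0%), with 3 guidance genes and 808 genes at an unadjusted p under 0.05. DESeq2 and limma-voom also called 0 guidance genes, with 2 and 4 under 0.05. The 3 under 0.05 with edgeR were *Sema3d*, *Nrp2* and *Sema4f*, none of them past the adjustment. *Sema3d* was at 0 in every ES-astrocyte library of IL-1α + TNF-α and C1Q + C5 and had counts in 3 of 4 of IL-1β + IL-6.

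The stimuli were compared with the control within each cell type, and the 4 comparisons of a cell type share their control libraries. Plate index 1 held the control and IL-1α + TNF-α, and plate index 2 the other 3 stimuli. The labels do not say what this index marks. For those 3 stimuli a difference from the control cannot be told apart from one between the index values. This holds for the differences of *Efna5*, *Nrp2*, *Plxna2* and *Nrp1* below, and for those of *Sema4c* and *Unc5a*, named after their values were seen. IL-1α and TNF-α served as the positive control for glial reactivity, C1Q and C5 are complement proteins, IL-1β and IL-6 are cytokines, and TGF-β2 is a growth factor. In ES-astrocytes edgeR called 0 guidance genes with IL-1α + TNF-α (34 tested, 0% of 10444 genes called), C1Q + C5 (38 tested, 0% of 10865), IL-1β + IL-6 (35 tested, 0% of 10240) and TGF-β2 (37 tested, 0% of 10794). At an unadjusted p under 0.05 there were 0, 1, 1 and 1 guidance genes. DESeq2 called 0 in each, with 1, 3, 1 and 3 under 0.05, although it called 21, 37, 56 and 58 of all genes. Limma-voom called 0 in each, with 1, 3, 6 and 4 under 0.05. Shares of all genes under 0.05 without adjustment are not given for any tool, so these counts are not set against all genes. Median log2 fold changes of the guidance genes were -0.02, 0.17, 0.14 and 0.20, beside -0.08, -0.07, -0.07 and -0.06 over all genes. Adjusted p-values for single members below come from edgeR, and none passed the threshold.

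*Efna5* was at 56.4, 105, 116 and 98.8 CPM in control ES-astrocytes (replicates A to D), at 186, 182, 187 and 157 CPM with IL-1β + IL-6 and at 277, 295, 285 and 117 CPM with TGF-β2. All IL-1β + IL-6 and TGF-β2 libraries lay above all control libraries, the closest pair being 117 CPM in TGF-β2 replicate D and 116 CPM in control replicate C. The log2 difference was 0.94 ± 0.34 with IL-1β + IL-6 (edgeR adjusted p = 1.00) and 1.42 ± 0.41 with TGF-β2 (edgeR adjusted p = 1.00), and the lowest of its control values came from replicate A, without which the differences were 0.76 and 1.23. With IL-1α + TNF-α its libraries were at 139, 157, 89.9 and 47.5 CPM and with C1Q + C5 at 268, 187, 89.3 and 57.2 CPM, so that both overlapped with the controls.

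*Nrp2* was at 0.321, 4.60, 0.364 and 0 CPM in control ES-astrocytes and at 29.6, 5.63, 15.0 and 59.8 CPM with C1Q + C5. The groups did not overlap, by a margin of 4.60 to 5.63 CPM. The log2 difference was 4.38 ± 1.64 (edgeR adjusted p = 1.00), and it was 6.86 without control replicate B and 3.64 without C1Q + C5 replicate D. In ES-astrocytes with IL-1α + TNF-α the gene was at 3.52, 2.31, 17.4 and 2.002 CPM, with IL-1β + IL-6 at 1.59, 4.83, 0 and 0.490 CPM and with TGF-β2 at 14.3, 3.98, 0 and 20.99 CPM, all overlapping with the control.

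In ES-motor neurons edgeR called 0 guidance genes with IL-1α + TNF-α (13 tested, 0% of 4479 genes called), C1Q + C5 (28 tested, 0% of 7348), IL-1β + IL-6 (32 tested, 0% of 8327) and TGF-β2 (31 tested, 0.0126% of 7947, which is 1 gene). There were 0, 0, 1 and 1 guidance genes at an unadjusted p under 0.05. DESeq2 called 0 in each, with 4, 0, 1 and 4 under 0.05, and limma-voom 0 in each, with 2, 1, 3 and 3. As for ES-astrocytes, the counts under 0.05 are not set against all genes. The medians of the guidance genes were -0.20, 0.02, -0.17 and -0.06, beside 0.03, -0.06, -0.01 and -0.00 over all genes. With IL-1α + TNF-α, where all 4 libraries were shallow, the filter left the fewest genes.

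*Plxna2* was at 18.96, 18.8, 7.64 and 24.3 CPM in control ES-motor neurons and at 6.53, 0, 0 and 0 CPM with IL-1β + IL-6. The groups did not overlap, but replicates B and D of the stimulus are shallow, where 3 counts are 33.8 and 20.1 CPM, and the lowest control, replicate C, is shallow too, with 2 counts. The log2 difference was -2.74 ± 1.24 (edgeR adjusted p = 1.00), and without replicate A the stimulated group is at 0. *Nrp1* was at 9.03, 12.03, 0 and 26.2 CPM in control ES-motor neurons and at 33.0, 33.1, 39.9 and 67.5 CPM with TGF-β2. The lowest TGF-β2 library lay above the highest control, while control replicate C and TGF-β2 replicate A are shallow. The difference was 1.75 ± 0.70 (edgeR adjusted p = 0.999), and 1.56 without the shallow libraries.

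**Figure D4:**
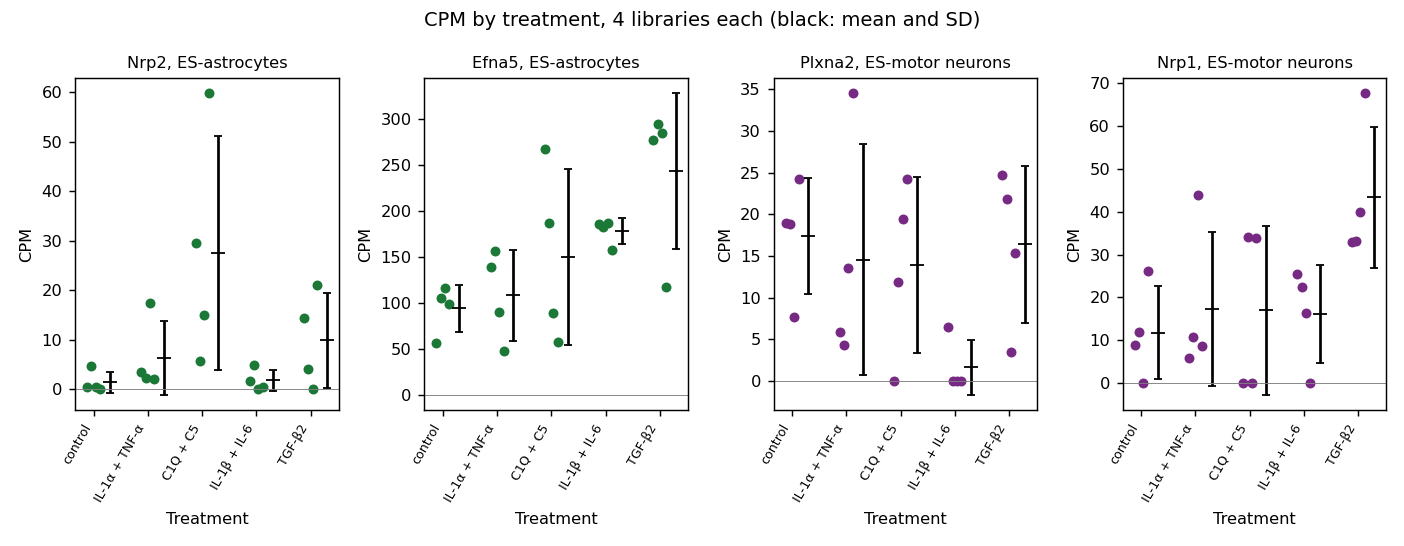
CPM (vertical axes) by treatment (horizontal axes) of the guidance genes with an unadjusted p under 0.05 against the control in a cell type, 4 libraries per treatment as points, with the mean and SD in black. *Efna5* and *Nrp2* are shown in ES-astrocytes and *Plxna2* and *Nrp1* in ES-motor neurons. Libraries of a treatment spread widely, as for *Efna5* with C1Q + C5.

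*Slit2* in ES-motor neurons was at 1198, 922, 837 and 864 CPM in the control, at 471, 842, 609 and 1026 CPM with IL-1α + TNF-α, at 606, 1019.7, 869 and 895 CPM with C1Q + C5, at 667, 664, 1173 and 549 CPM with IL-1β + IL-6 and at 854, 925, 868 and 779 CPM with TGF-β2. Each group overlapped with the control, and no difference was called, which does not show that its level was kept. In ES-astrocytes it was at 25.5, 36.8, 58.3 and 34.2 CPM in the control, and it reached its lowest values with IL-1β + IL-6, at 22.0, 2.62, 38.6 and 3.43 CPM, where replicates B and D fell below all others. These values overlapped with the control as well.

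Guidance genes that the filter removed from a stimulus comparison were tested one by one on CPM, 4 libraries against 4, where the smallest possible exact two-sided permutation p is 0.0286. Across the 8 comparisons 24 to 46 such genes had counts. An exact permutation p of 0.0286 was reached in 3 comparisons, once each, by genes named after their values were seen. They were *Sema4c* with C1Q + C5 in ES-astrocytes (means of 2.83 against 0.333 CPM), *Plxna1* with IL-1α + TNF-α in ES-motor neurons (33.7 against 12.04 CPM) and *Unc5a* with IL-1β + IL-6 in ES-motor neurons (0.190 against 3.67 CPM). *Unc5a* was at 0 in replicates B, C and D of the stimulus, of which B and D are shallow, with 3 counts at 33.8 and 20.1 CPM, and C is not (0.597 CPM). For *Plxna1* all 4 stimulated libraries and control replicate C are shallow. Exons of *Sema4c* overlap a noncoding gene and exons of *Unc5a* overlap *Hk3*, each on the opposite strand. The counts of both genes are therefore uncertain too. For *Sema4c* the control mean lay within the range of the 3-count limits of those libraries, 0.271 to 1.09 CPM. These p-values were not adjusted for the number of genes tested. The permutation test was run on guidance genes only, so its results are not set against all genes.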

How the data were processed

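RNA of 40 libraries of about 200 sorted cells each, 4 per cell type and treatment, was read as polyadenylated transcripts, by oligo-dT cDNA cut with Tn5. The count table deposited by the authors holds raw read counts per Ensembl gene, mapped with STAR, and the authors used DESeq2. Not given in the sources used here are both versions, how reads were counted and on which strand, the build of the genome, and its annotation. The sample sheet deposited by the authors also holds a plate index, read as a unit of its own (other). All count columns were used (0 left out), and libraries were grouped by the labels.

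Counts were scaled by TMM and tested with edgeR 4.0.16 in R 4.3.3 (quasi-likelihood, robust, filterByExpr), with limits of 0.05 on the adjusted p and 1 on the absolute log2 fold change. Alternatives used DESeq2 1.42.0 (alpha 0.1) and limma 3.58.1 (voom with quality weights), RLE, no filter, a stricter filter (CPM of 5 in 4 libraries), an adjusted p of 0.1, no fold limit, the replicate letter or co-culture as a block, the plate row pair as a term, control libraries only, all 20 libraries of a cell type in 1 fit, no libraries under 20% of the median total, and each library left out in turn. Row pairs alone and stimuli alone were added after seeing the data. Tables and figures used Python 3.11.15, pandas 2.3.3, numpy 2.4.6 and matplotlib 3.10.9. Fits were tested on simulated data, and no value from those tests is given or used here.

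Gene lengths and overlaps came from GENCODE M21, which matched 55227 of 55487 genes. The other 260 held 0.117% of the counts. Total counts were 6557 to 19717324 per library, and 3 counts served as the limit of a gene without counts. Named guidance genes are those called between cell types, in a stimulus comparison or in the interaction, the gene of highest level per length of each family in each cell type, and *Slit1*, with the 3 genes of smallest p of each marker or guidance list (11 lists). The guidance genes and the lists were chosen with earlier results of these data known.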

Additional observations from a re-analysis of the deposited data

Results flagged for a closer look

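In groups of 4 libraries, a value was singled out where its gap to the nearest other library took up nearly the whole range of the group. Chance picks out about 1 in 20 groups where values are normally distributed, and the rate for these values was not measured. Of 10 groups tested for total counts, 3 held such a library, and of 34 groups tested for single guidance genes, 10 did. No explanation was tested.

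Total counts were far above the other 3 libraries in ES-motor neuron control replicate B (19717324, others 240859 to 2383502), ES-astrocyte IL-1α + TNF-α replicate A (14831839, others 2019196 to 2535419) and ES-motor neuron TGF-β2 replicate B (12606121, others 283205 to 1695346).

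In control ES-astrocytes, single libraries held most of the counts of genes that were low in the other 3. These were *Slit3* in replicate A (9.72 CPM, others 0 to 0.513), *Sema3d* in replicate B (10.7 CPM, others 0), *Sema5a* in replicate D (16.2 CPM, others 0), *Nrp2* in replicate B (4.60 CPM, others 0 to 0.364) and *Robo3* in replicate D (15.04 CPM, others 0). In control ES-motor neurons, *Epha3* was high in replicate A (18.96 CPM, others 3.33 to 4.59) and *Sema4d* in replicate C (26.7 CPM, others 0 to 1.68), which is a shallow library.

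With a stimulus, *Efna5* was low in ES-astrocyte replicate D with IL-1β + IL-6 (157 CPM, others 182 to 187) and in replicate D with TGF-β2 (117 CPM, others 277 to 295). *Plxna2* had counts with IL-1β + IL-6 in ES-motor neuron replicate A alone (6.53 CPM, others 0).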

How the results depend on the processing

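Over all 40 libraries, none of the 14 called guidance genes changed sign under any alternative in which it was tested, and all 14 were called whichever single library was left out. The number higher in ES-motor neurons ranged from 9 to 10 and the number lower from 5 to 6 over these 40 fits. It was 9 and 5 with RLE scaling, the stricter filter, no limit on the fold change, the replicate letter as a block and the plate row pair as a term, 9 and 6 without a filter, 10 and 6 at an adjusted p of 0.1 and with DESeq2, 10 and 5 with the co-culture as a block, and 8 and 5 without the shallow libraries. Limma-voom gave 19 higher and 4 lower. Shares of all genes called by DESeq2 and limma-voom are given above. For the other settings so far in this paragraph they are not given, so those counts are not set against all genes. Control libraries alone gave 1 higher and 0 lower by edgeR with 8 at an unadjusted p under 0.05, a count not set against all genes. The libraries of 1 stimulus alone, chosen after seeing the data as the row pairs were, gave 3 higher and 1 lower with IL-1α + TNF-α (0.643% and 2.18% of all genes), 3 and 2 with C1Q + C5 (0.610% and 2.54%), 2 and 1 with IL-1β + IL-6 (0.452% and 1.67%) and 2 and 1 with TGF-β2 (1.295% and 2.33%). These fits hold 8 libraries and test 30 to 38 guidance genes in place of 53.

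Among the named guidance genes, sign changes were seen only in those that were not called. Sign changes of guidance genes that are not named are not listed here. Without the shallow libraries, *Sema4b* was 0.14 and *Ephb2* 0.026. In the control libraries *Sema4b* was 0.18 and *Efna5* 0.84. With limma-voom *Sema4b* was 0.24, *Ntn3* 2.49, *Ntng1* 0.42, *Ephb2* 0.37, *Plxna1* 0.44 and *Slit1* 1.03, and with DESeq2 *Ntn3* was 0.98. With the co-culture as a replicate block *Ephb2* was 0.21 and *Plxna1* 0.36. Within rows E and F *Ntn3* was 1.33, and within rows G and H *Ephb2* was 1.95, *Robo1* -0.21, *Plxna1* 1.11 and *Slit1* 0.26. With IL-1α + TNF-α alone *Sema3c* was -0.94, *Ephb2* 0.89, *Robo1* -0.51 and *Plxna1* 0.61. With C1Q + C5 alone *Sema4b* was 0.25, with IL-1β + IL-6 alone *Epha4* was -0.12, *Robo1* -0.20, *Plxna1* 1.32 and *Slit1* 0.057, and with TGF-β2 alone *Sema4b* was 0.55 and *Ephb2* 0.37. With 1 library left out, *Ntn3* ranged from -0.86 to 0.89, *Ephb2* from -0.25 to 0.29 and *Plxna1* from -0.39 to 0.064. The cause was not tested.

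The interaction and the 8 stimulus comparisons gave 0 called guidance genes by edgeR, DESeq2 and limma-voom and with each library left out. Not run were IL-1α + TNF-α in ES-motor neurons and the interaction without shallow libraries, since all 4 stimulated libraries are shallow. Replicate letters were not taken as pairs: over 180 pairs with the same letter, correlations ran from -0.223 to 0.517 with a median of 0.0263, and in 67 of 180 comparisons a library was best correlated with its own letter, where chance gives 1 in 4. Mean CPM by total counts stayed within 1 SD for 56 of 56 values. With the longest transcript as the length, the leading gene was the same in 11 of 14 families in ES-astrocytes (not for *Slit3*, *Sema3c* and *Nrp2*) and in 14 of 14 in ES-motor neurons.

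Depth limits the ES-motor neurons most. In the library of 6557 counts, 3 counts are 202 CPM, and of the named guidance genes *Slit2* and *Slit3* stood above that limit. What size of stimulus effect would have been called was not tested.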
